A study of Mus musculus with 20 samples.

Results

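The liver X receptors and their classical cholesterol-handling targets were followed in adipocyte precursor cells, the fibroblast-like progenitors from which fat cells form. The members were chosen by name as 10 genes of the deposited count table, out of 33899 genes in all. They are the receptors Nr1h3 (LXRα) and Nr1h2 (LXRβ), the targets Abca1, Abcg1, Mylip, Apoe, Pltp, Lpcat3 and Smpdl3a, and Cyp27a1, which makes a receptor ligand. All 10 passed the filter on low counts and were among the 14242 genes tested.

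Liver X receptors are nuclear receptors that oxysterols, the oxidised forms of cholesterol, switch on. They pair with a retinoid X receptor (RXR) on DNA elements made of a repeated half-site, hold corepressors there without ligand and exchange them for coactivators once ligand binds. Their targets move cholesterol out of cells, remodel lipoproteins and membrane phospholipids and limit uptake through the LDL receptor, and in fat tissue the pathway is known both in fat cells and in macrophages.

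The cells came from female C57Bl6/J mice of 8 to 11 weeks of age, either on the standard diet SD (day 0) or after 3 days of HFD, a high-fat diet with 60% lard. Fat was taken from the perigonadal (visceral) depot, called VWAT, and from inguinal subcutaneous fat, called SWAT, which gives the groups VWAT SD, VWAT HFD, SWAT SD and SWAT HFD with 5 libraries each. No group carries a transgene, a deletion or a drug. Every library pools tissue of 3 mice, so a library is a pool and not an animal, and all groups passed the same sort for cells positive for Sca1, CD34 and CD29 and negative for CD31 and CD45, whatever their CD24. Libraries of polyadenylated RNA were stranded and read as 75 bp single reads.

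Each library held 14.4 to 47.5 M (mega) reads on genes. The 6 precursor markers summed to 3916 to 6185 counts-per-million (CPM) and were detected in every library. The 5 visceral depot markers, led by Wt1 and Tcf21, summed to 18.3 CPM in the library labelled VWAT SD 5 and to 188.8 CPM in the library labelled SWAT SD 5, against 155.6 to 319.9 CPM in the other VWAT libraries and 12.2 to 33.4 CPM in the other SWAT libraries. The 4 subcutaneous markers gave 105.3 and 26.1 CPM in these libraries, so both go against their depot label, and results are given with all 20 libraries and, where a member's call differs, with the 18 others. Libraries also differed in how their deviations from the mean followed the GC content of genes. Spearman's rho of that trend across genes was 0.50 to 0.61 in 4 VWAT SD libraries, -0.53 in VWAT SD 1, -0.63 to -0.23 in VWAT HFD, -0.16 to 0.62 in SWAT SD and -0.56 to 0.04 in SWAT HFD. The trend moves with diet, so fold changes are also given from 18 libraries with a GC offset, in which each library's trend with GC content was removed. In bulk RNA, fewer cells that express a gene and less of its RNA per cell cannot be told apart.

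Promoters are shown for Abca1, the member that rose in VWAT on HFD, and for Pltp and Cyp27a1, which fell in both depots. Each is 300 bases, 250 before and 50 after the annotated start, from RefSeq on GRCm38.p6, whereas the counts were made on mm9. Abca1 lies at chr4:53159846-53160145 (minus strand), Pltp at chr2:164857659-164857958 (minus strand) and Cyp27a1 at chr1:74713285-74713584 (plus strand). Capitals mark a DR4-like element, a pair of AGGTCA half-sites with 4 bases between them, read on either strand with at most 3 mismatches.
Abca1: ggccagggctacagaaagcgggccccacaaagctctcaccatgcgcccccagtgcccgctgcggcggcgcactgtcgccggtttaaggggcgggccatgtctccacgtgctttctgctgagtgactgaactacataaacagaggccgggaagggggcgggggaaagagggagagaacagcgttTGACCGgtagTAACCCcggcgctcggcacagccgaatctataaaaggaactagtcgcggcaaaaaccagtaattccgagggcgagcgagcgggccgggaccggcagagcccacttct
Pltp: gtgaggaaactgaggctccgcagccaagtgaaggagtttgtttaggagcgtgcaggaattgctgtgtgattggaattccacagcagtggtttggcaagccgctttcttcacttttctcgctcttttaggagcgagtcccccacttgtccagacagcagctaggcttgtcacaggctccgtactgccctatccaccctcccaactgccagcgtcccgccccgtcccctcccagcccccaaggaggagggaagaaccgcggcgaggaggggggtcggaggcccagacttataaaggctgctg
Cyp27a1: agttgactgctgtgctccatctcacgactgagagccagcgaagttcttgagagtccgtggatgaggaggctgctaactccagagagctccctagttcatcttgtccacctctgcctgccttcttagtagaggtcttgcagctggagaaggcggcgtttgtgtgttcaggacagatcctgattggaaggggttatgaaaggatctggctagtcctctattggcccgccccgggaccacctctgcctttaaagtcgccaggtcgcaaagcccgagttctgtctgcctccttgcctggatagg
The Abca1 element reads on the minus strand of the printed sequence and begins 67 bases before the gene's start (position -67). The table held 11 windows for 8 members, and Abca1 was the member with such an element. An element with at most 3 mismatches is common, in 21.9% of 32851 promoters of the same length, and that limit was chosen after the sequences were seen. With at most 2 mismatches, 3.02% of promoters and 0 member windows held the element. The table has no entry for Abcg1 and Smpdl3a. A match is a description of letters in a window, and binding was not tested here.

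In VWAT after 3 days of HFD, both receptor genes, the lipoprotein genes Apoe and Pltp, the exporter Abcg1, the phospholipid enzyme Lpcat3 and the ligand enzyme Cyp27a1 fell, while the exporter Abca1 rose. That is 1 of 10 members higher and 7 lower (edgeR quasi-likelihood test, Benjamini-Hochberg adjusted p under 0.05 over all genes). In the same comparison 19.7% of all tested genes were higher and 26% were lower. The median log2 fold change of the members was -1.03, beside -0.03 for all genes. With 18 libraries the counts were 1 higher and 6 lower against 36.5% of genes called in either direction, since Lpcat3 was no longer called (adjusted p = 0.0644). With 18 libraries and the GC offset 3 members stayed called, Nr1h2, Pltp and Cyp27a1, all lower, against 14.8% of genes called. Which members stay depends on the libraries, since the GC offset on all 20 libraries called Nr1h2 and Pltp as lower and Abca1 as higher and not Cyp27a1, against 19.2% of genes called.

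**Figure D1:**
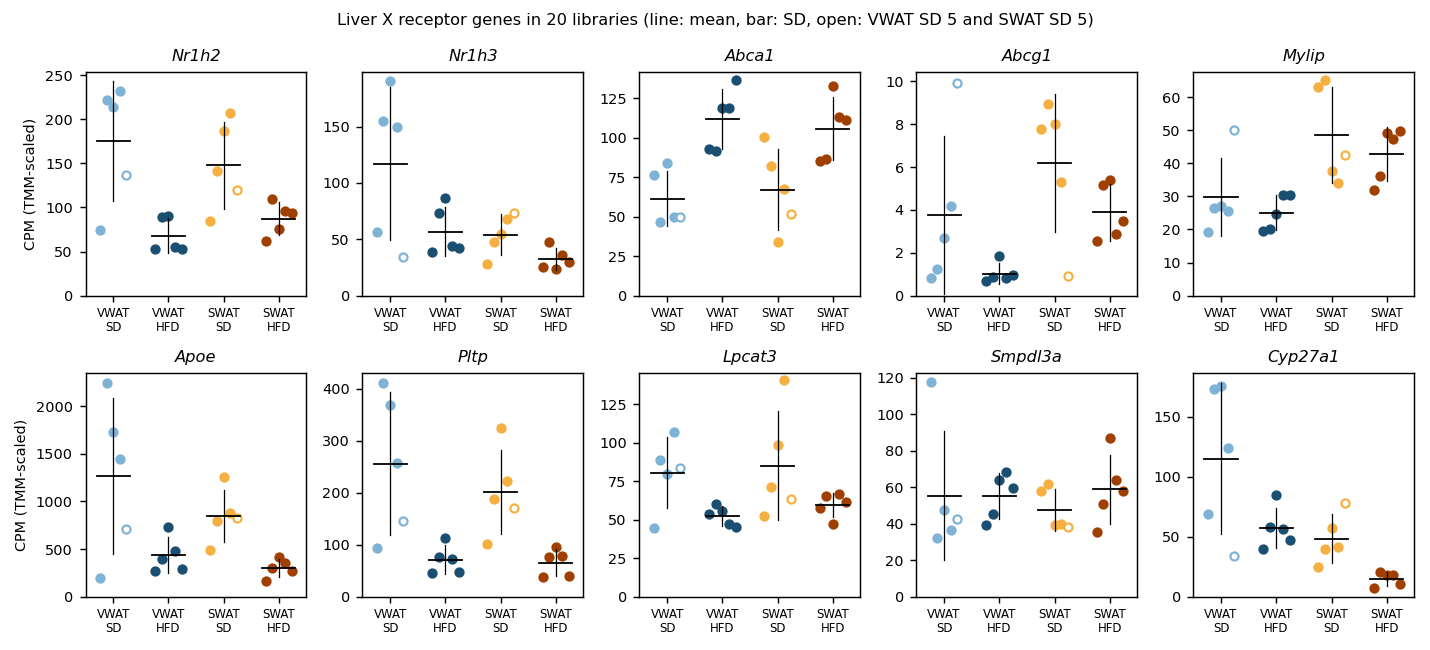
TMM-scaled CPM of the 10 genes in the 20 libraries, 1 point per library, with the group mean (line) and SD (bar), and with open points for VWAT SD 5 and SWAT SD 5. The VWAT HFD points of Abca1 all lie above those of VWAT SD, and the SWAT HFD points of Apoe, Pltp and Cyp27a1 all lie below those of SWAT SD.

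Nr1h2, which encodes the widely expressed LXRβ, had 74.0, 221.9, 213.8, 232.3 and 137.4 CPM in VWAT SD 1 to 5 and 52.9, 89.1, 89.9, 55.4 and 52.6 CPM in VWAT HFD 1 to 5. VWAT SD 1 was the low library of its group and lay within the range of the HFD libraries, so the groups overlap. The gene fell (log2 fold change -1.37 ± 0.29 SE, edgeR adjusted p = 0.00349, n = 5 per group) and was called in all 20 fits that left out a library. The 18 libraries with the GC offset gave a smaller fall of -0.49 ± 0.14 (edgeR adjusted p = 0.0266). In SWAT the values were 84.9, 141.0, 187.1, 206.9 and 119.8 CPM on SD and 62.2, 110.1, 75.4, 96.1 and 93.7 CPM on HFD, which overlap. The change there was -0.76 ± 0.29 (edgeR adjusted p = 0.0917), and it passed without VWAT SD 1 or SWAT SD 1 (adjusted p 0.0298 and 0.0441). Over all genes the fit without VWAT SD 1 called 1716 higher and 1646 lower. The fit without SWAT SD 1 called 979 and 1206, beside 122 and 100 with all libraries. The Nr1h2 change also passed in edgeR with a replicate block (adjusted p = 0.0341). With 18 libraries and the GC offset it was -0.19 ± 0.14 (edgeR adjusted p = 0.469).

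Nr1h3, which encodes LXRα, the receptor known from liver, fat and macrophages, had 56.2, 154.7, 190.2, 149.6 and 33.9 CPM in VWAT SD and 38.3, 72.9, 86.5, 43.7 and 42.3 CPM in VWAT HFD. The libraries VWAT SD 1 and the one labelled VWAT SD 5 were low and fell in or under the HFD range. The gene fell by 1.04 ± 0.38 on the log2 scale (edgeR adjusted p = 0.0306), and the call was lost without any of VWAT SD 2, 3 or 4 or VWAT HFD 1, 4 or 5 (adjusted p 0.0736 to 0.105). The 18 libraries gave -1.28 ± 0.33 (edgeR adjusted p = 0.00862). Adding the GC offset left -0.51 ± 0.20 (edgeR adjusted p = 0.0796). In SWAT Nr1h3 had 27.7, 47.5, 54.5, 67.9 and 73.6 CPM on SD and 25.6, 47.4, 23.2, 35.9 and 29.8 CPM on HFD. These groups overlap and the change of -0.74 ± 0.38 did not pass (edgeR adjusted p = 0.163).

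The balance of the receptor genes within a library differed between depots in the libraries whose depot markers match their labels. Per exon length, the ratio of Nr1h3 to Nr1h2 was 0.709, 0.651, 0.830, 0.601 and 0.230 in VWAT SD 1 to 5 and 0.676, 0.764, 0.899, 0.736 and 0.752 in VWAT HFD. It was 0.305, 0.314, 0.272, 0.306 and 0.574 in SWAT SD and 0.384, 0.402, 0.288, 0.349 and 0.297 in SWAT HFD. The library labelled VWAT SD 5 and the library labelled SWAT SD 5 each lay outside the range of the other libraries of their depot. Among the 18 others the VWAT ratios, from 0.601 to 0.899, did not overlap the SWAT ratios, from 0.272 to 0.402. The ratio was chosen after the values were seen and is given as a description without a test.

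**Figure D2:**
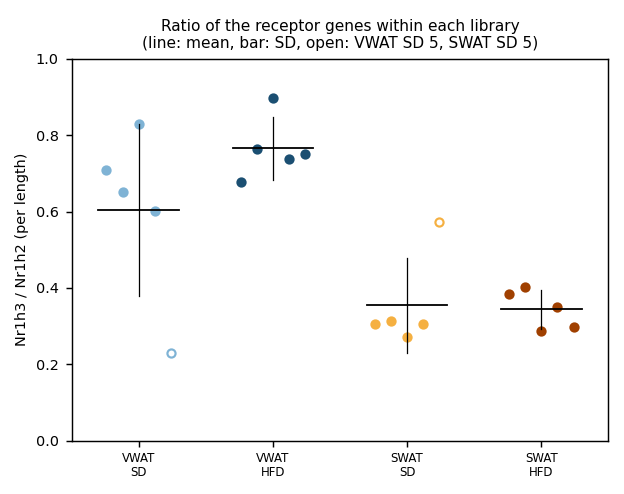
Ratio of Nr1h3 to Nr1h2, each per exon length, in each of the 20 libraries, with group mean (line) and SD (bar). Filled VWAT points lie at 0.601 or above and filled SWAT points at 0.402 or below, while the open points of those labelled VWAT SD 5 (0.230) and SWAT SD 5 (0.574) do not follow their depot label.

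Abca1, the exporter that loads cholesterol and phospholipid onto apolipoprotein A-I, had 76.3, 46.8, 83.9, 49.5 and 49.7 CPM in VWAT SD. It had 93.2, 91.7, 118.7, 119.2 and 136.7 CPM in VWAT HFD, all above every SD library. Abca1 rose by 0.87 ± 0.25 on the log2 scale (edgeR adjusted p = 0.00972) and was called without each library in turn. With the GC offset on all 20 libraries it stayed called at 0.62 ± 0.20 (edgeR adjusted p = 0.0393). With the offset and 18 libraries together the value was 0.54 ± 0.21 (edgeR adjusted p = 0.0793), past the threshold no longer. In SWAT it had 100.6, 82.0, 34.1, 67.9 and 51.5 CPM on SD and 85.5, 86.8, 132.7, 113.2 and 111.0 CPM on HFD. The highest SD library lay among the HFD libraries, and the difference of 0.65 ± 0.24 did not pass (edgeR adjusted p = 0.0901). It passed without VWAT SD 1 or SWAT SD 1 (edgeR adjusted p 0.0465 and 0.0363) and in DESeq2 (adjusted p = 0.0499). The fits without those libraries called far more of all genes, as given for Nr1h2. With 18 libraries and the GC offset the SWAT difference of Abca1 was 0.40 ± 0.21 (edgeR adjusted p = 0.285).

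Abcg1, which passes cholesterol to high-density lipoprotein, was the member of lowest level, with 15 to 301 reads per library. VWAT SD gave 0.812, 1.22, 2.70, 4.18 and 9.94 CPM, the last in the library labelled VWAT SD 5, and VWAT HFD gave 0.668, 0.863, 1.86, 0.811 and 0.938 CPM. The groups overlap and the SD libraries spread far more widely than the HFD libraries. The log2 fold change was -1.90 ± 0.58 (edgeR adjusted p = 0.0145), but -1.10 without VWAT SD 5 (edgeR adjusted p = 0.105). The 18 libraries gave -1.10 ± 0.42 (edgeR adjusted p = 0.0450), and -0.72 ± 0.38 once the GC offset was added (edgeR adjusted p = 0.201). In SWAT the values were 7.77, 8.94, 8.01, 5.30 and 0.918 CPM on SD and 2.53, 5.15, 5.39, 2.86 and 3.46 CPM on HFD. The 0.918 CPM belongs to the library labelled SWAT SD 5, and the diet difference of -0.68 ± 0.55 did not pass (edgeR adjusted p = 0.373).

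Apoe, the lipoprotein ligand that accepts cellular cholesterol, was the most abundant member. VWAT SD had 190.8, 2248, 1730, 1452 and 707.4 CPM and VWAT HFD 271.1, 391.2, 732.6, 483.3 and 293.8 CPM. VWAT SD 1 lay below all HFD libraries, so the groups overlap, and the fall was -1.54 ± 0.44 (edgeR adjusted p = 0.0101). The 18 libraries with the GC offset gave -0.64 ± 0.33 (edgeR adjusted p = 0.193). SWAT SD had 486.5, 790.2, 1254, 874.7 and 829.9 CPM and SWAT HFD 161.6, 303.5, 414.6, 357.2 and 265.6 CPM, with every HFD library below every SD library. That difference of -1.50 ± 0.44 did not pass with all libraries (edgeR adjusted p = 0.0627), and passed without VWAT SD 1 (edgeR adjusted p = 0.0096) or without SWAT SD 1 (edgeR adjusted p = 0.0347). The fits without those libraries called far more of all genes, as given for Nr1h2. With all 20 libraries the SWAT difference of Apoe passed in DESeq2 (adjusted p = 0.0127) and in edgeR with a replicate block (adjusted p = 0.00836). It was -0.86 ± 0.33 with 18 libraries and the GC offset, which did not pass (edgeR adjusted p = 0.166). Neither did the offset on all 20 libraries (-0.87 ± 0.32, edgeR adjusted p = 0.165) or a term for unassigned reads (edgeR adjusted p = 0.180).

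Pltp encodes the plasma transfer protein that moves phospholipid between lipoproteins. It had 93.7, 412.3, 369.5, 256.7 and 145.8 CPM in VWAT SD and 44.5, 75.4, 113.2, 73.0 and 47.7 CPM in VWAT HFD. SD libraries were higher apart from VWAT SD 1, which lay under the highest HFD library. Pltp fell by 1.85 ± 0.39 on the log2 scale (edgeR adjusted p = 0.00334). The GC offset with 18 libraries left -1.18 ± 0.29 (edgeR adjusted p = 0.0150). In SWAT it had 101.4, 187.7, 324.4, 223.1 and 170.5 CPM on SD and 38.6, 75.9, 95.5, 77.9 and 39.1 CPM on HFD, without overlap. It fell there by 1.62 ± 0.39 (edgeR adjusted p = 0.0477), and this call was kept in 4 of 20 fits that left out a library, those without VWAT SD 1, 2 or 5 or SWAT SD 1. Those fits called from 168 higher and 134 lower genes (without VWAT SD 2) to 1716 and 1646 (without VWAT SD 1) over all genes. The other fits called at most 76 higher and 37 lower genes (without VWAT SD 4). Several called 0 genes, such as those without SWAT SD 3 or SWAT HFD 1. For Pltp the 18 libraries gave an edgeR adjusted p of 0.0509, and with the GC offset -1.11 ± 0.29 (edgeR adjusted p = 0.0553). Exons of Pltp share 495 bp with Ctsa on the other strand, whose log2 fold change was -1.04 in VWAT and -0.59 in SWAT, and the strand setting of the counting is not given in the sources used here, so the counts of Pltp are uncertain.

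Cyp27a1, the mitochondrial enzyme that makes 27-hydroxycholesterol, an LXR ligand, fell in both depots. In VWAT it had 68.9, 172.8, 176.1, 124.1 and 34.0 CPM on SD and 39.9, 58.0, 84.4, 56.3 and 47.1 CPM on HFD. The groups overlap through VWAT SD 1 and the library labelled VWAT SD 5. The fall was -1.01 ± 0.38 (edgeR adjusted p = 0.0361), lost without any of VWAT SD 2, 3 or 4 or VWAT HFD 1, 2, 4 or 5 (adjusted p 0.0648 to 0.127), and -0.89 ± 0.26 with 18 libraries and the GC offset (edgeR adjusted p = 0.0274). It was not called with the GC offset on all 20 libraries (-0.66 ± 0.35, edgeR adjusted p = 0.186) or with a term for unassigned reads (edgeR adjusted p = 0.373). In SWAT it had 24.8, 39.5, 57.0, 41.5 and 78.3 CPM on SD and 7.38, 20.8, 17.6, 17.7 and 10.5 CPM on HFD. All HFD libraries lay below all SD libraries, and the fall was -1.71 ± 0.39 (edgeR adjusted p = 0.0474). It was kept in 5 of 20 fits that left out a library, those without VWAT SD 1, 2, 4 or 5 or SWAT SD 1, and was -1.22 ± 0.26 with 18 libraries and the GC offset (edgeR adjusted p = 0.0306). The single-library fits that lost the Cyp27a1 call had few or 0 genes called over all genes. The most was 25 higher and 3 lower, without SWAT HFD 4. The offset on all 20 libraries (edgeR adjusted p = 0.0579) and the term for unassigned reads (edgeR adjusted p = 0.129) lost the call.

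Lpcat3 was called in VWAT, and Mylip and Smpdl3a in neither depot. Lpcat3, which puts polyunsaturated acyl chains into phospholipids, had 44.4 to 106.9 CPM in VWAT SD and 44.9 to 60.3 CPM in VWAT HFD. It fell by 0.62 ± 0.24 (edgeR adjusted p = 0.0389), a call kept in 6 of 20 fits, those without VWAT SD 1, SWAT SD 1, 3, 4 or 5 or SWAT HFD 2. With 18 libraries and the GC offset it was at -0.27 ± 0.20 (edgeR adjusted p = 0.364). Its exons share 38 bp with Emg1 on the other strand, so its counts are uncertain too. Mylip, the ligase IDOL that degrades the LDL receptor, had 19.4 to 50.3 CPM in VWAT SD and 19.4 to 30.5 CPM in VWAT HFD (-0.25 ± 0.25, edgeR adjusted p = 0.403). Smpdl3a, a secreted phosphodiesterase, had 32.1 to 117.7 CPM in VWAT SD, with the highest value in VWAT SD 1, and 39.3 to 68.4 CPM in VWAT HFD (edgeR adjusted p = 0.991). In SWAT, Lpcat3 (-0.51 ± 0.24, edgeR adjusted p = 0.137), Mylip (-0.18 ± 0.24, edgeR adjusted p = 0.596) and Smpdl3a (0.32 ± 0.31, edgeR adjusted p = 0.454) did not pass.

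In SWAT 0 members were higher after HFD and 2 were lower, Pltp and Cyp27a1, where 0.857% of all genes were higher and 0.702% were lower. With 18 libraries Cyp27a1 alone was called against 0.641% of genes, as it was with the GC offset added, against 1.41% of genes. The GC offset on all 20 libraries called 0 members in edgeR and 0.653% of genes. At an unadjusted p under 0.05 it had 4 members and 2608 of all 14242 genes. The members' median log2 fold change was -0.71, beside -0.04 for all genes. The diet by depot interaction called 0 members and 0% of all genes in edgeR. At an unadjusted p under 0.05 it had 605 genes and 0 members, and DESeq2 called 0 genes, so a diet response that differs between depots was not detected for any member. Abcg1 had the interaction of largest size (-1.22 ± 0.79, edgeR adjusted p = 0.942), and -0.15 ± 0.56 with 18 libraries.

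**Figure D3:**
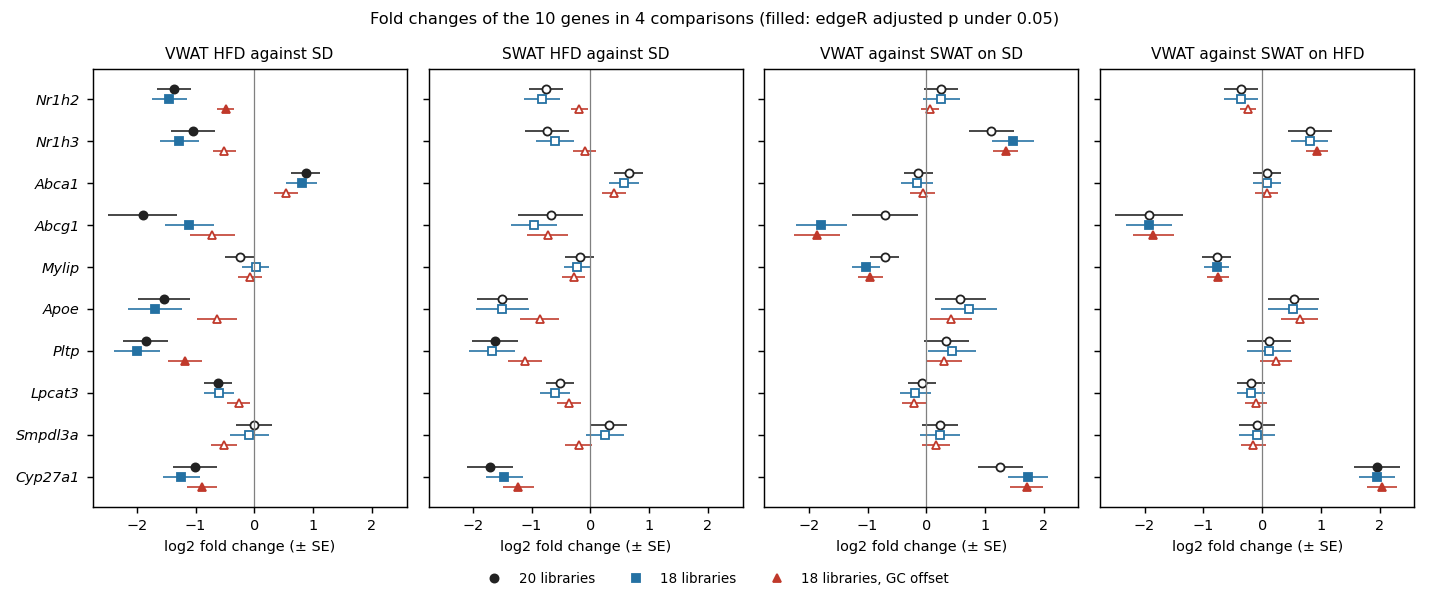
Log2 fold changes (± SE) of the 10 genes in the 4 comparisons, from 20 libraries (circles), 18 libraries (squares) and 18 libraries with a GC offset (triangles), filled where the edgeR adjusted p is under 0.05. The diet changes of Nr1h2, Apoe and Pltp are smaller with the GC offset, and the depot differences of Nr1h3, Abcg1, Mylip and Cyp27a1 on SD are called with 18 libraries and not with 20.

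Diet fold changes were lower in members of higher GC content. The members run from 46.0% GC in Smpdl3a and 48.8% in Abca1 to 60.6% in Apoe and 60.8% in Nr1h2. Spearman's rho of log2 fold change against GC content across the 10 genes, which are not independent replicates, was -0.82 in VWAT and -0.76 in SWAT. It was -0.42 and -0.27 with 18 libraries and the GC offset. The part of the libraries' GC trend in the diet changes was not tested beyond this offset.

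**Figure D4:**
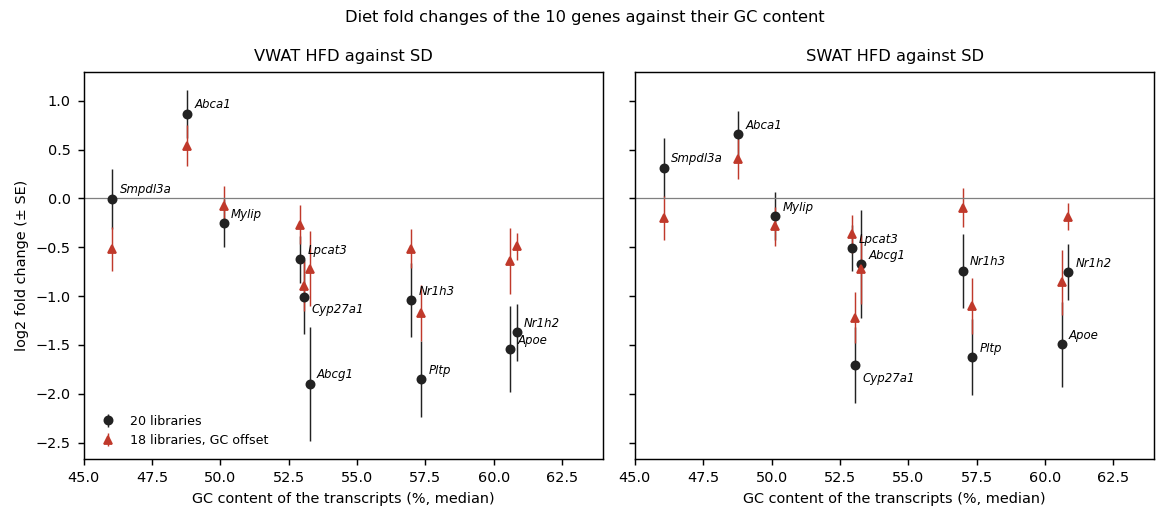
Log2 fold change for HFD against SD (± SE) of each of the 10 genes against the GC content of its transcripts in percent, from 20 libraries (circles) and from 18 libraries with a GC offset (triangles). With 20 libraries Abca1, at 48.8% GC, is above 0 and the 4 genes over 56% GC are below 0 in both depots, while the triangles lie closer to 0 for Nr1h2, Nr1h3 and Apoe.

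Macrophage and leukocyte RNA can carry several of these genes, so its markers are given beside them. The 12 markers summed to 13.9 to 62.3 CPM in VWAT SD (median 52.4), 14.0 to 39.4 in VWAT HFD (median 16.5), 17.2 to 94.8 in SWAT SD (median 53.1) and 18.3 to 35.0 in SWAT HFD (median 28.3). The sort removed CD45-positive cells, and of the 12 markers Fcgr1 was at 0 in some libraries. The median sums are lower on HFD in both depots. That is the direction of the 7 members called lower in VWAT, and of 26% of all genes there. The part of macrophage and leukocyte RNA in the results was not tested. The 7 mature adipocyte markers summed to 2.79 to 20.9 CPM in VWAT SD (median 14.6), 2.52 to 8.64 in VWAT HFD (median 4.37), 7.05 to 24.2 in SWAT SD (median 18.3) and 2.08 to 7.20 in SWAT HFD (median 5.87). Of these, Adipoq, Cidec, Lep, Retn and Cfd were at 0 in some libraries. In both depots the median sum is lower on HFD, the direction of the members that fell. Plin4 gave the largest part of the sum in most SD libraries, and had 1.27 to 15.0 CPM in VWAT SD and 0.223 to 2.99 in VWAT HFD. Cfd was lower in VWAT too, at 0.395 to 1.71 CPM on SD and 0.124 to 0.265 on HFD. Plin1, Adipoq and Retn did not follow in VWAT, reaching 3.36, 0.347 and 0.385 CPM on SD and 4.31, 0.543 and 0.407 on HFD. The part of adipocyte RNA in those results was not tested.

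Between depots on SD, edgeR called 0 members and 0% of all genes with 20 libraries. At an unadjusted p under 0.05 there were 1009 genes and 3 members, and DESeq2 called 9 genes and 0 members. In the 18 libraries whose depot markers match their labels, 4 members differed, against 8.45% of all genes. Nr1h3 (1.48 ± 0.35, edgeR adjusted p = 0.00840) and Cyp27a1 (1.73 ± 0.34, edgeR adjusted p = 0.00169) were higher in VWAT. Abcg1 (-1.79 ± 0.43, edgeR adjusted p = 0.00964) and Mylip (-1.03 ± 0.24, edgeR adjusted p = 0.00777) were lower in VWAT. The GC offset kept these 4 calls, against 12.6% of all genes. Without the library labelled VWAT SD 5 alone, Nr1h3, Mylip and Cyp27a1 were called (adjusted p 0.0152 to 0.0243).

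On HFD, where all 10 libraries match their depot label, Cyp27a1 was 39.9 to 84.4 CPM in VWAT and 7.38 to 20.8 CPM in SWAT, without overlap. It was higher in VWAT by 1.95 ± 0.39 (edgeR adjusted p = 0.00735) in all fits that left out a library. That was 1 of 10 members higher and 0 lower, where 2.82% of all genes were higher and 3.63% were lower. Abcg1, at 0.668 to 1.86 CPM in VWAT and 2.53 to 5.39 CPM in SWAT, did not overlap either and missed the threshold (-1.93 ± 0.58, edgeR adjusted p = 0.0502). Mylip, at 19.4 to 30.5 CPM in VWAT and 31.9 to 49.8 CPM in SWAT, likewise did not overlap (-0.78 ± 0.25, edgeR adjusted p = 0.0632). Leaving out VWAT SD 1 or VWAT SD 5 called both, and leaving out VWAT SD 2, VWAT HFD 3 or SWAT SD 5 called Abcg1. With the spread estimated from 18 libraries both were called (adjusted p = 0.00177 and 0.0209), among 10.8% of all genes. With the GC offset added Nr1h3 joined them (0.94 ± 0.19, edgeR adjusted p = 0.00123), among 16.1% of all genes. The 5 epithelial markers moved with depot too, at 0.680 to 6.71 CPM in VWAT SD and 1.29 to 5.12 in VWAT HFD, against 103.7 to 580.9 in SWAT SD and 37.1 to 211.2 in SWAT HFD among the 18 libraries. In SWAT the median of these sums was also lower on HFD, at 121.2 CPM against 329.1 CPM on SD among the 18 libraries. The part of epithelial RNA in the depot differences and in the SWAT diet differences was not tested.

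Per exon length, levels ranged widely among the members. Mean RPKM (reads-per-kilobase-per-million) over all libraries was 387.3 for Apoe, 63.0 for Pltp, 59.7 for Nr1h2, 31.1 for Cyp27a1, 30.5 for Lpcat3, 30.3 for Nr1h3, 27.6 for Smpdl3a, 11.3 for Mylip, 8.43 for Abca1 and 0.544 for Abcg1. The SD over libraries of Cyp27a1 (25.7), Lpcat3 (10.7), Nr1h3 (21.8) and Smpdl3a (10.4) is larger than the gaps between them, so these neighbours have no clear order. Neither do Pltp and Nr1h2, Pltp and Cyp27a1, or Mylip and Abca1. Nr1h2 had a higher mean than Cyp27a1 in all 4 groups, at 33.9 against 30.2 in VWAT HFD and 43.6 against 7.81 in SWAT HFD. Across the 20 libraries, which share the trends above, Apoe and Pltp had a Pearson r of 0.93 of log2 CPM, Nr1h3 and Cyp27a1 of 0.89, and Nr1h2 and Abca1 of -0.72. The r of a member with the libraries' GC trend itself was 0.93 for Nr1h2, 0.89 for Pltp, 0.85 for Apoe and 0.84 for Lpcat3. It was 0.63 for Nr1h3, 0.55 for Cyp27a1, 0.42 for Abcg1, 0.12 for Mylip, -0.61 for Smpdl3a and -0.84 for Abca1. The genes outside the members with the highest r were Palm (0.993), Egln2 (0.989) and Abhd4 (0.988) for Nr1h2, Mmp23 (0.968), Tmc6 (0.965) and Acvrl1 (0.962) for Nr1h3, Fgf10 (0.952), Ncor1 (0.947) and Sbno1 (0.945) for Abca1, and Fam131a (0.954), Traf4 (0.954) and Suv39h1 (0.953) for Apoe.

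The partners of the receptors moved in both directions with diet in VWAT. Of 10 RXR and cofactor genes 4 rose and 4 fell, beside 19.7% of all genes higher and 26% lower. With 18 libraries 3 rose and 4 fell, against 36.5% of all genes called in either direction, and Ncoa2 was not called (edgeR adjusted p = 0.0988). Rxra (-0.94 ± 0.20, edgeR adjusted p = 0.00334) and Rxrb (-1.35 ± 0.31, edgeR adjusted p = 0.00449), the dimer partners, fell with the corepressor subunits Gps2 (-1.11) and Hdac3 (-0.87). The corepressor genes Ncor1 (0.83 ± 0.23, edgeR adjusted p = 0.00829) and Tbl1xr1 (1.05) and the coactivators Ncoa1 (0.72) and Ncoa2 (0.62) rose. With 18 libraries and the GC offset, Hdac3 (-0.98 ± 0.21, edgeR adjusted p = 0.00941) and Gps2 (-0.40 ± 0.13, edgeR adjusted p = 0.0402) stayed called and Rxra was at -0.07. In SWAT edgeR called 0 of the 10, with Ncor1 of smallest p (0.69 ± 0.23, edgeR adjusted p = 0.0764). There 6 had an unadjusted p under 0.05, as had 4877 of all 14242 genes. DESeq2 called 1 higher and 3 lower, beside 6.93% and 7.81% of all genes.

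Of 7 tested genes of oxysterol synthesis and breakdown, 2 rose and 2 fell in VWAT, beside the same shares of all genes, 19.7% higher and 26% lower. Cyp7b1, which breaks down 25- and 27-hydroxycholesterol, had 5.94 to 15.6 CPM on SD and up to 68.1 CPM on HFD, without overlap, and rose by 1.88 ± 0.39 (edgeR adjusted p = 0.00315), and Cyp39a1 rose by 0.97. Hsd3b7 (-0.77) and Cyp46a1 (-1.38), which makes 24-hydroxycholesterol, fell. Cyp46a1 was low, at 0.790 to 4.07 CPM in VWAT SD and 0.569 to 0.860 CPM in VWAT HFD. With 18 libraries and the GC offset edgeR called 0 of the 7, beside 14.8% of all genes. In that fit 2 had an unadjusted p under 0.05, as had 4625 of all 14360 genes. Cyp7b1 was at 0.78 ± 0.36 (edgeR adjusted p = 0.142). In SWAT Sult2b1, an oxysterol sulfotransferase, fell by 2.31 ± 0.57 (edgeR adjusted p = 0.0477), and with 18 libraries the adjusted p was 0.0559. Sult2b1 was low as well, at 0.619 to 5.38 CPM in SWAT SD and 0.324 to 0.626 CPM in SWAT HFD.

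Of the 7 lipogenic targets 1 rose and 3 fell in VWAT, where 19.7% of all genes were higher and 26% lower. Lpl, lipoprotein lipase, had 275.4 to 621.6 CPM on SD and 771.5 to 1627 CPM on HFD, without overlap, and rose by 1.40 ± 0.25 (edgeR adjusted p = 0.00309). Srebf1, the lipogenic transcription factor gene and a classical LXR target, fell by 1.28 ± 0.26 (edgeR adjusted p = 0.00311), as did Mlxipl (-2.63 ± 0.58) and Fasn (-0.74 ± 0.24), which encode ChREBP and fatty acid synthase. Mlxipl was low, at 0.395 to 3.93 CPM in VWAT SD and 0.133 to 1.09 CPM in VWAT HFD, and its groups overlap. With 18 libraries and the GC offset, Lpl (0.88 ± 0.21, edgeR adjusted p = 0.0132) and Mlxipl (-1.86 ± 0.53, edgeR adjusted p = 0.0258) stayed called, Srebf1 was at -0.13 ± 0.12 (edgeR adjusted p = 0.505) and Fasn at 0.17. In SWAT Srebf1 fell by 1.05 ± 0.26 (edgeR adjusted p = 0.0477), and with 18 libraries and the GC offset the value was -0.49 ± 0.12 (edgeR adjusted p = 0.0520). In that fit Scd2, a stearoyl-CoA desaturase, was the lipogenic gene called in SWAT (-0.85 ± 0.20, edgeR adjusted p = 0.0399).

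Among 16 other targets and sterol transport genes 11 were tested, and 4 rose and 2 fell in VWAT, again beside 19.7% and 26% of all genes. With 18 libraries 1 was higher and 1 lower, Arl4c and Scarb1, against 36.5% of all genes called in either direction. Arl4c, a small GTPase and LXR target, rose by 1.42 ± 0.43 (edgeR adjusted p = 0.0129) and stayed called with 18 libraries and the GC offset (1.54 ± 0.47, edgeR adjusted p = 0.0358). Ttc39b (0.79), the efferocytosis receptor Mertk (0.76) and the lipoprotein receptor Vldlr (0.75) rose, while the lipoprotein receptor Scarb1 (-0.91) and the lysosomal sterol carrier Npc2 (-0.56) fell. In SWAT edgeR called 0 of the 11, with Vldlr of smallest p (0.77 ± 0.28, edgeR adjusted p = 0.0879). There 6 had an unadjusted p under 0.05, as had 4877 of all 14242 genes. DESeq2 called 2 higher and 1 lower, beside 6.93% and 7.81% of all genes. Between depots edgeR called 0 genes of the 4 lists with 20 libraries on either diet. An unadjusted p under 0.05 was seen for 1 gene on SD and 3 on HFD, beside 1009 and 2854 of all 14242 genes. DESeq2 called 0 on SD and 1 on HFD, beside 0.0632% and 10.2% of all genes. With 18 libraries, Rxrg (-3.93 ± 0.94, edgeR adjusted p = 0.00869) and Apoc1 (-2.48 ± 0.63, edgeR adjusted p = 0.0132) were lower in VWAT on SD. Both are low, Rxrg at no more than 2.14 CPM and Apoc1 at no more than 3.37 CPM in any library. Cyp7b1 (1.21 ± 0.37, edgeR adjusted p = 0.0385) was higher in VWAT on HFD. In that fit 8.45% of all genes were called on SD and 10.8% on HFD, in either direction. Abcg5, Abcg8, Apoc2, Apoc4, Nr0b2 and Cyp11a1 were too low to be tested, with at most 14 reads in any library.

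**Figure D5:**
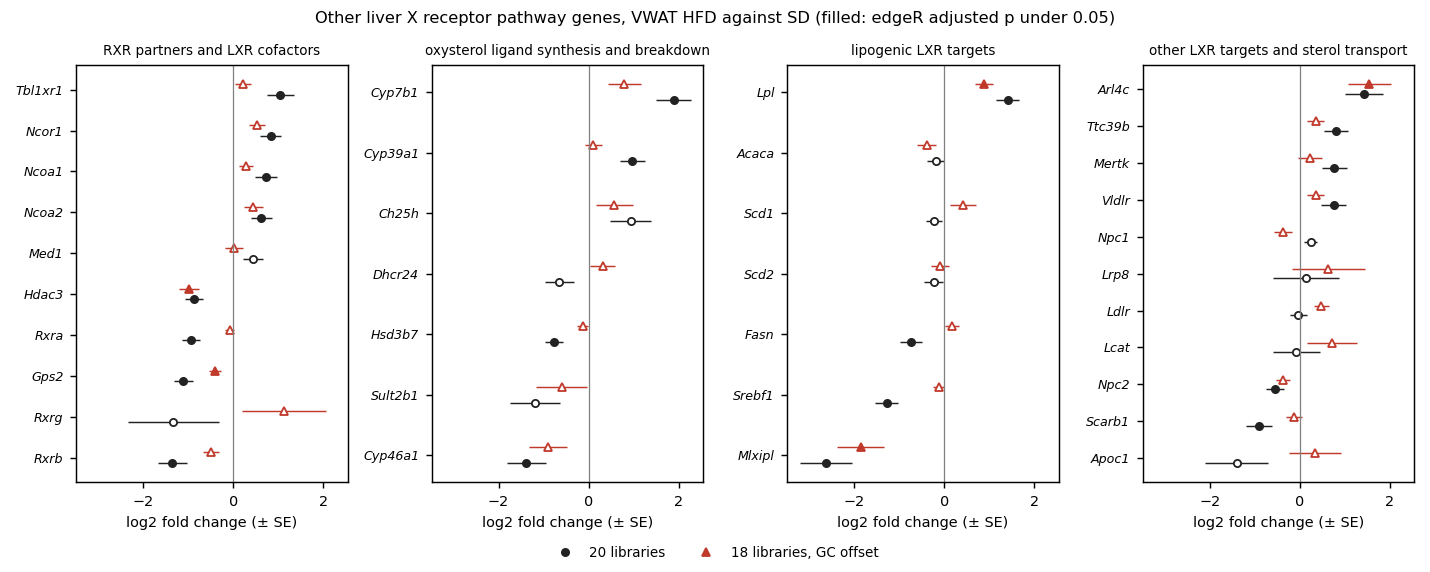
Log2 fold change for VWAT HFD against SD (± SE) of the other pathway genes in 4 lists, from 20 libraries (circles) and from 18 libraries with a GC offset (triangles), filled where the edgeR adjusted p is under 0.05. Lpl, Mlxipl, Arl4c, Hdac3 and Gps2 are filled in both.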

How the data were processed

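RNA from sorted adipocyte precursor cells of 4 groups of 5 libraries was analysed. The authors deposited raw read counts per gene as whole numbers. Reads were aligned with TopHat to mm9 and HTSeq made the counts, per the submitters' processing notes. No source used here gives versions, annotation or strand setting. Of 33929 rows, 5 HTSeq summary rows (21.8% to 37% of reads per library) and 25 rows with calendar dates in place of symbols (0.0598% to 0.132%) were left out. That step leaves 33899 genes and 14.4 to 47.5 M (mega) reads per library, so counts of genes near 1 CPM carry counting error beside the spread between pools.

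Counts were tested with edgeR 4.0.16 in R 4.3.3 (filterByExpr, TMM scaling, robust quasi-likelihood test, 1 mean per group over all 20 libraries), with Benjamini-Hochberg adjustment over 14242 genes at 0.05. SE was taken as the absolute log2 fold change over root F. The scripts were tested on simulated data. CPM are TMM-scaled. RPKM use merged exon lengths of a GRCm38 annotation, and GC content was found for 98.6% of tested genes. The GC offset is a loess trend (span 0.3) of each library's deviations on GC content. Alternatives were RLE size factors, no filter, DESeq2 1.42.0, the 2 groups compared alone, a replicate block, 18 libraries, the GC offset, a covariate for the unassigned share and leaving out each library. All 40 replicate pairs differed by more than sampling noise (chi-square per degree of freedom 20.4 to 453). Replicates are separate pools of mice per the labels. Named genes are the 10 members, the called genes and those of smallest p in 4 pathway lists, and the 3 genes of most similar pattern for Nr1h2, Nr1h3, Abca1 and Apoe. A cofactor gene of the lists is not reported here. The members and lists were chosen with earlier results of these data known. The receptor ratio and the promoter limit of 3 mismatches were chosen after seeing the data.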

Additional observations from a re-analysis of the deposited data

Results flagged for a closer look

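In 3 of 40 groups of 5 values, 1 library stood apart from the others of its group (gap over range above 0.71), where chance gives about 1 in 20 groups. Abcg1 was at 1.86 CPM in VWAT HFD 3, above the other VWAT HFD libraries. Mylip was at 50.3 CPM in the library labelled VWAT SD 5, above the other VWAT SD libraries, and this is a library whose depot markers go against its label. Smpdl3a was at 117.7 CPM in VWAT SD 1, above the other VWAT SD libraries, and this library's GC trend had the opposite sign to those of the rest of its group.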

How the results depend on the processing

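The number of members called in VWAT on HFD against SD was 8, and it was 5 without a filter on low counts, 3 with the GC offset, 3 with 18 libraries and the GC offset and 4 with the unassigned share as a covariate. In SWAT it was 2, and it was 0 without a filter, 4 with DESeq2, 4 with the 2 groups alone, 4 with the replicate block, 1 with 18 libraries, 0 with the GC offset, 1 with both and 0 with the covariate. Over all genes the SWAT calls moved as well, from 222 to 44 without a filter, 2100 with DESeq2, 1939 with the 2 groups alone, 2088 with the block, 92 with 18 libraries, 93 with the GC offset, 203 with both and 0 with the covariate (2746 genes at an unadjusted p under 0.05). In VWAT 6502 genes were called, and 5419 without a filter, 2729 with the GC offset, 2121 with it and 18 libraries and 1880 with the covariate. Between depots the number of members was 0 on SD, and 4 with 18 libraries with or without the GC offset. On HFD it was 1, and it was 3 with DESeq2, 4 with the 2 groups alone, 3 with 18 libraries, 4 with the GC offset and 4 with both. Of all genes 0% were called on SD, 8.45% with 18 libraries and 12.6% with the offset too. On HFD 6.45% of all genes were called, and 10.2%, 20.3%, 10.8%, 10.1% and 16.1% in the fits just named, in that order. Leaving out each library gave 5 to 8 members in VWAT, 0 to 5 in SWAT, 0 to 3 between depots on SD and 1 to 3 on HFD, and 0 for the interaction. Over all genes those fits called from 1666 higher and 2766 lower (without VWAT SD 2) to 4288 and 4217 (without VWAT SD 1) in VWAT. In SWAT they called from 0 to 1716 and 1646 (without VWAT SD 1). Between depots they called from 0 to 167 and 423 on SD (without VWAT SD 5). On HFD they called from 195 and 265 (without SWAT HFD 5) to 641 and 776 (without VWAT SD 1). Whether equal replicate numbers mark shared mice or handling was not tested, since correlations between libraries cannot decide it. Same-numbered libraries of 2 groups correlated at -0.657 to 0.594. The lowest value belongs to number 5 of VWAT SD and SWAT SD, where depot markers oppose both labels. The best-matching library had the same number in some cases and another number in others. A shared replicate effect was not examined beyond the replicate block.

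Directions turned for members that were not called. Mylip in VWAT was 0.0229 with 18 libraries and -0.32 to 0.025 without single libraries. Smpdl3a in VWAT was 0.0292 without a filter, 0.0043 with the 2 groups alone, 0.0774 with the replicate block and -0.13 to 0.53 without single libraries, and in SWAT -0.12 with the GC offset and -0.20 with 18 libraries and the offset. Between depots on SD, Apoe was -0.0346 and Pltp -0.10 with the covariate, and without single libraries Abca1 ran from -0.30 to 0.0884, Lpcat3 from -0.20 to 0.17 and Smpdl3a from -0.25 to 0.41. On HFD, Pltp ran from -0.0816 to 0.32 and Smpdl3a from -0.20 to 0.12. The causes were not tested. Abcg1, with 15 reads in VWAT SD 2, is the member with the fewest reads.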
